A study of Mus musculus with 16 samples.

Results

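Adult hypothalamus was compared with adult striatum in libraries labelled wild type, gene by gene, by RNA sequencing of whole tissue. The genes compared were those listed at 1 RPKM or more in at least 2 of the 4 libraries, which were 11634 of the 24176 genes in the table. RPKM are by definition read numbers scaled to transcript length and library total, so levels can be set side by side between genes. Which total was used is not stated. Of the 11634 genes, 9533 reached 1 RPKM in all 4 libraries, 1116 in both hypothalamic libraries and no striatal library, 239 in both striatal libraries and no hypothalamic library, and 746 in another combination. A gene that entered only through 1 region was selected for being high there, so the counts over gene lists below are descriptions. Of the 1116 genes, 810 were later called higher in hypothalamus and 306 were not called. Of the 239 genes, 238 were called higher in striatum. The 1 RPKM level was judged before the scaling given below, which lowers hypothalamic values relative to striatal ones.

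The hypothalamic group held 2 libraries from B6/129 F1 mice aged 8 weeks. The striatal group held 2 libraries from B6/FVB F1 mice aged 12 weeks. Both groups are labelled wild type (WT), and their labels name neither a Cre transgene nor a floxed allele. Region, strain and age change together between the groups and cannot be told apart in this contrast. Whether replicates came from separate animals is not stated, and the p-values reflect library-to-library spread only, which may be technical. That spread was estimated over all 16 libraries of the series, in 8 groups, which include cortex and striatum at 3 weeks labelled knockout. Between replicates the log2 spread was 0.234 and 0.186 in those 2 groups. It was 0.0915 in wild-type hypothalamus and 0.141 in wild-type striatum at 12 weeks. The series set out to find transcripts that depend on Rai1, a nuclear protein that binds chromatin, haploinsufficiency for which underlies Smith-Magenis syndrome. Its libraries labelled knockout gave the same regional contrast without sharing a library: hypothalamus of Vglut2-Cre;Rai1CKO mice, B6/129 F1 at 8 weeks, and striatum of Gad2-Cre;Rai1CKO mice, B6/FVB F1 at 12 weeks, with 2 libraries each. Wild-type striatum and cortex at 3 weeks, both B6/FVB F1 with 2 libraries each, are given for levels. Beyond that they enter only the scaling and the estimate of spread. Rai1 itself went against the genotype labels. Its level was 3.68 and 3.99 RPKM in hypothalamus labelled wild type and 8.47 and 6.52 in hypothalamus labelled knockout. In striatum it stood at 5.08 and 4.88 in the libraries labelled wild type and 12.3 and 13.3 in those labelled knockout. Every library labelled knockout was above every library labelled wild type of its region. Which part of the gene was floxed is not stated in the labels, and whether genotype labels were exchanged was not tested. Genotypes below are those of the labels.

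The striatum is made up mainly of GABAergic spiny projection neurons, which receive glutamate from cortex and thalamus and dopamine from the midbrain and answer through cyclic AMP and calcium signalling. The hypothalamus holds many small groups of neurons that release peptides, either within the brain or into the blood, and that control feeding, water balance, arousal, reproduction and stress responses. It also lines the third ventricle, where tanycytes and ependymal cells lie. The 2 regions come from different parts of the embryonic forebrain, the striatum from the telencephalon and the hypothalamus from ventral diencephalic territory, and adult neurons keep part of the transcription factor pattern of their origin.

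The promoters of 4 peptide genes that were nearly limited to the hypothalamic libraries are shown because such genes headed the hypothalamic side, beside that of Scn4b, the striatal gene of largest difference with an entry in the promoter table. Each is the 250 bases before the RefSeq gene start (GRCm38.p6), 5′ to 3′ on the gene's strand. Hcrt, on the minus strand, is at chr11:100762932-100763181, Pmch, on the plus strand, at chr10:88090822-88091071, Oxt, on the plus strand, at chr2:130575919-130576168, Avp, on the minus strand, at chr2:130582589-130582838, and Scn4b, on the plus strand, at chr9:45138374-45138623. Capitals mark matches to 4 sets of letters searched on both strands, in a window that ran on to 50 bases after the start: TATAAA, the TATA box, CACGTG, an E-box, TGACGTCA, a cyclic AMP response element, and AGGTCA, a nuclear receptor half-site. No 2 matches overlap in these windows.
Hcrt: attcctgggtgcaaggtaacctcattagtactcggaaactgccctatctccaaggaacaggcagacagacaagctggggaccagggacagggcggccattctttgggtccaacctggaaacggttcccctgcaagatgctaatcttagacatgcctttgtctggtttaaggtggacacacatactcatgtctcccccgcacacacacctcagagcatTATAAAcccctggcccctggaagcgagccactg
Pmch: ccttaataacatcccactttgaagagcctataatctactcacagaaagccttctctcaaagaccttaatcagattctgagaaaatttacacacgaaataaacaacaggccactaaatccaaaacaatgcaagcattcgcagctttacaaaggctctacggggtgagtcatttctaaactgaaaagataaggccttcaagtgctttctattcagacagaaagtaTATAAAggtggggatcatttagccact
Oxt: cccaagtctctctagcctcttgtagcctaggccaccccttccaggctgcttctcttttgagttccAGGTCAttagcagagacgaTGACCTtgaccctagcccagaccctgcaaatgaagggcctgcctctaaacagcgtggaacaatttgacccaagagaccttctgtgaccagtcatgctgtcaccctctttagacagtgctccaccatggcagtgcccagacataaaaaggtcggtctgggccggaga
Avp: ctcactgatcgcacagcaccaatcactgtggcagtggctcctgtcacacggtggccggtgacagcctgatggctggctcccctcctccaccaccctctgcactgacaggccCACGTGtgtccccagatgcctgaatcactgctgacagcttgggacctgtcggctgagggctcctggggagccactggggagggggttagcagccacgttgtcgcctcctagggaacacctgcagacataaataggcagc
Scn4b: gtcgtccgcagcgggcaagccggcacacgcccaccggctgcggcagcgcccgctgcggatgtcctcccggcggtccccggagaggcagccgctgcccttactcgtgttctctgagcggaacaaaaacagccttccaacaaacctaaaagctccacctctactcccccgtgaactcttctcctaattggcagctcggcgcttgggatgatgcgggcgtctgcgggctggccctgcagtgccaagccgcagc
TATAAA began 33 bases before the start of Hcrt and 27 bases before that of Pmch. The same letters were in 15.7% of the 27025 genes with a 300-base window, in 8.21% of the 8741 compared genes with one, in 11.4% of the genes at least 1 log2 unit higher in hypothalamus and in 10.6% of those at least 1 log2 unit higher in striatum. AGGTCA was present in both orientations in the window of Oxt, in 18.1% of all genes and in 14.4% of the compared genes. CACGTG was in the window of Avp, in 8.09% of all genes and in 11.9% of the compared genes. TGACGTCA was in none of the 5 windows, in 2.03% of all genes and in 3.66% of the compared genes. No match was found in the window of Scn4b. A match is only a run of letters.

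The 4 libraries were of like depth. In miRNA genes, whose hairpin length is known, RPKM multiplied by length moved in steps of 0.0214 to 0.0230 (1 counted unit, scaled to the library total). Whether a unit is a read or a mate of a pair is not stated. Replicates correlated at Pearson r = 0.9921 in hypothalamus and 0.9867 in striatum across genes, which are not independent, and hypothalamic with striatal libraries at 0.776 to 0.799. More genes reached 1 RPKM in hypothalamus (11445 and 11537) than in striatum (10018 and 10536), and RPKM summed to 118418 and 126722 against 82332 and 101457. Median-ratio scale factors were 1.237 and 1.317 in hypothalamus and 0.7564 and 0.9453 in striatum. Log2 differences below are hypothalamus minus striatum on log2(scaled RPKM + 0.5), while levels are the deposited RPKM, unscaled.

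Of the 11634 genes, 6235 (53.6%) differed at an adjusted p below 0.05 (limma, Benjamini-Hochberg over all genes tested), and are called below. Hypothalamus was higher for 3086 genes (26.5%) and striatum for 3149 (27.1%). Counts of called members in every gene list below are to be read beside these 2 shares. The groups of 2 libraries did not overlap for 9376 genes (80.6%), so a lack of overlap was common. At least 1 log2 unit separated the regions for 918 called genes higher in hypothalamus (7.89%) and 1049 higher in striatum (9.02%). At least 3 log2 units did so for 44 and 95. Without further scaling of the RPKM the median of all genes moved by 0.51, and 6546 genes were called higher in hypothalamus and 1186 higher in striatum. The split between directions therefore rests on the scaling, and differences below are relative to the median gene. In bulk tissue, fewer cells of a type and less RNA per cell cannot be told apart, which holds for every gene named here.

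**Figure D1:**
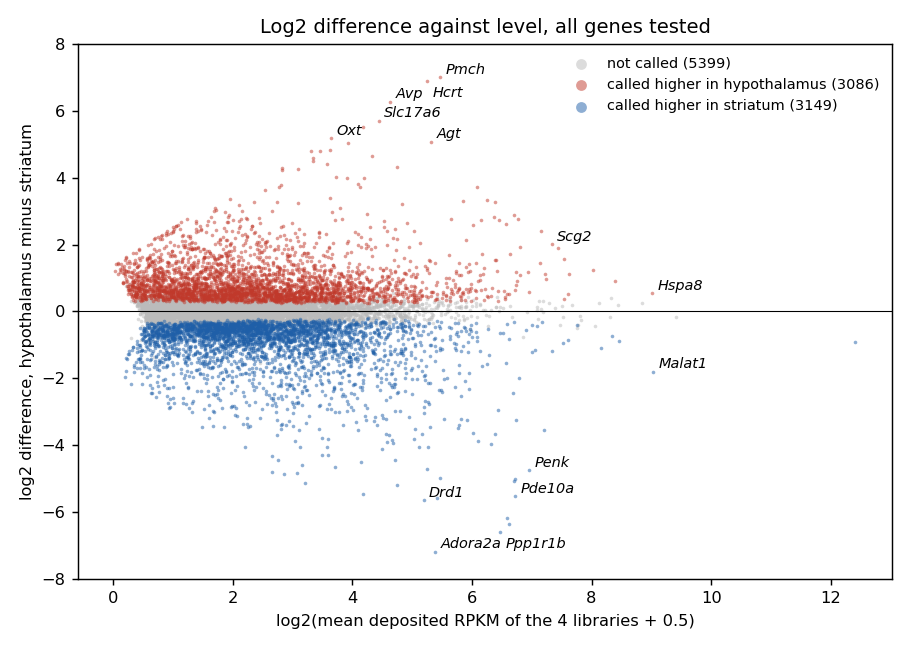
Log2 difference (hypothalamus minus striatum, vertical axis) against the mean level of the 4 libraries (horizontal axis, log2 RPKM + 0.5) for all 11634 genes; each point is a gene, coloured by its call. The 3086 genes called higher in hypothalamus lie above 0 and the 3149 called higher in striatum below it, with peptide genes at the top edge and spiny projection neuron genes at the bottom. For genes listed at 0 in a region, such as Hcrt, Avp and Oxt, the height depends on the 0.5 added before the log.

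Peptide genes stood at the head of the hypothalamic side. Hcrt, the precursor of the arousal peptides orexin A and B, was at 74.3 and 75.6 RPKM in hypothalamus and is listed at 0 in both striatal libraries. Pmch, the precursor of melanin-concentrating hormone, a peptide of the lateral hypothalamus, was at 90.2 and 85.4 RPKM against 0.0612 and 0. The hypothalamic libraries were close to each other and far above the striatal ones, with a log2 difference of 7.01 (SE 0.36, adjusted p = 8.01e-10, limma). Avp, the vasopressin precursor, was at 45.1 and 52.6 RPKM and is listed at 0 in striatum. Oxt, the oxytocin precursor, was at 15.3 and 32.7 RPKM and is likewise listed at 0 in striatum. The 2 hypothalamic libraries differed more from each other for Oxt than for the other 3 genes. No log2 difference is given for genes listed at 0 in a region.

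Further precursors followed at lower levels. Adcyap1, which encodes the peptide PACAP, was at 19.7 and 17.9 RPKM in hypothalamus and 0.0219 and 0.0636 in striatum, a log2 difference of 4.8. Cartpt, a precursor linked to feeding, was at 18.6 and 19.9 against 0.157 and 0.152 (4.51). Trh, the thyrotropin-releasing hormone precursor, was at 24.3 and 32.3 against 0.695 and 0.850 (3.99). Pomc, the precursor of melanocortins of the arcuate nucleus, was at 13.6 and 12 against 0.104 and 0.385 (3.79). Each of these 4 genes was called, and its groups lay far apart. Gal, Tac2, Calca, Pnoc, Vip, Nts and Bdnf were also called higher in hypothalamus, at hypothalamic levels below 5 RPKM and log2 differences of 1.14 (Nts) to 2.34 (Gal).

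Of the 64 neuropeptide precursors in the table, 35 were tested. Of these, 22 were called higher in hypothalamus and 6 higher in striatum, with a median log2 difference of 1.47 against 0.00 over all genes tested. However, 19 of the tested precursors reached 1 RPKM in hypothalamus only. The 4 precursors listed at 0 in striatum (Hcrt, Avp, Oxt and Npvf) lie above the median at any value. Several releasing hormones stayed below the level needed for testing. Crh was at 0.646 and 1.19 RPKM in hypothalamus, Ghrh at 0.178 and 0.995 and Gnrh1 at 0.221 and 0.205. Agrp, the arcuate peptide that opposes melanocortins, was at 1.36 and 0.919, and Kiss1 at 0.325 and 0.346.

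The precursors called higher in striatum were the opioid and tachykinin genes of the spiny projection neurons (Penk, Tac1 and Pdyn) with Npy, Cck and Vgf. Penk, the enkephalin precursor of the indirect pathway, was at 226 and 243 RPKM in striatum and 11.5 and 13.6 in hypothalamus, a log2 difference of -4.75. Tac1, the substance P precursor of the direct pathway, was at 22.8 and 33.3 against 14.4 and 15.9 (-1.42), and Pdyn, the dynorphin precursor, at 10.9 and 15.2 against 9.37 and 10.6 (-0.92; -0.36 and not called without further scaling). Npy was at 9.25 and 13.2 in striatum and 4.78 and 6.41 in hypothalamus (-1.49). For these 4 genes both hypothalamic values were below both striatal values. Cck, the cholecystokinin precursor, was at 2.84 and 8.42 against 3.05 and 5.1 (-0.81). Without the second striatal library its difference was -0.24 (adjusted p = 0.391, limma), and without the first hypothalamic library -0.53 (0.205). Vgf, a granule protein and peptide precursor, was at 11.9 and 14.2 in hypothalamus and 10.2 and 15.8 in striatum, and its call (-0.54, adjusted p = 0.0497, limma) was lost without further scaling and without any 1 of the 4 libraries (adjusted p from 0.0532 to 0.251). Sst, the somatostatin precursor, was at 27 and 30.7 in hypothalamus and 19.7 and 22.7 in striatum and was not called (-0.15, adjusted p = 0.385, limma).

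**Figure D2:**
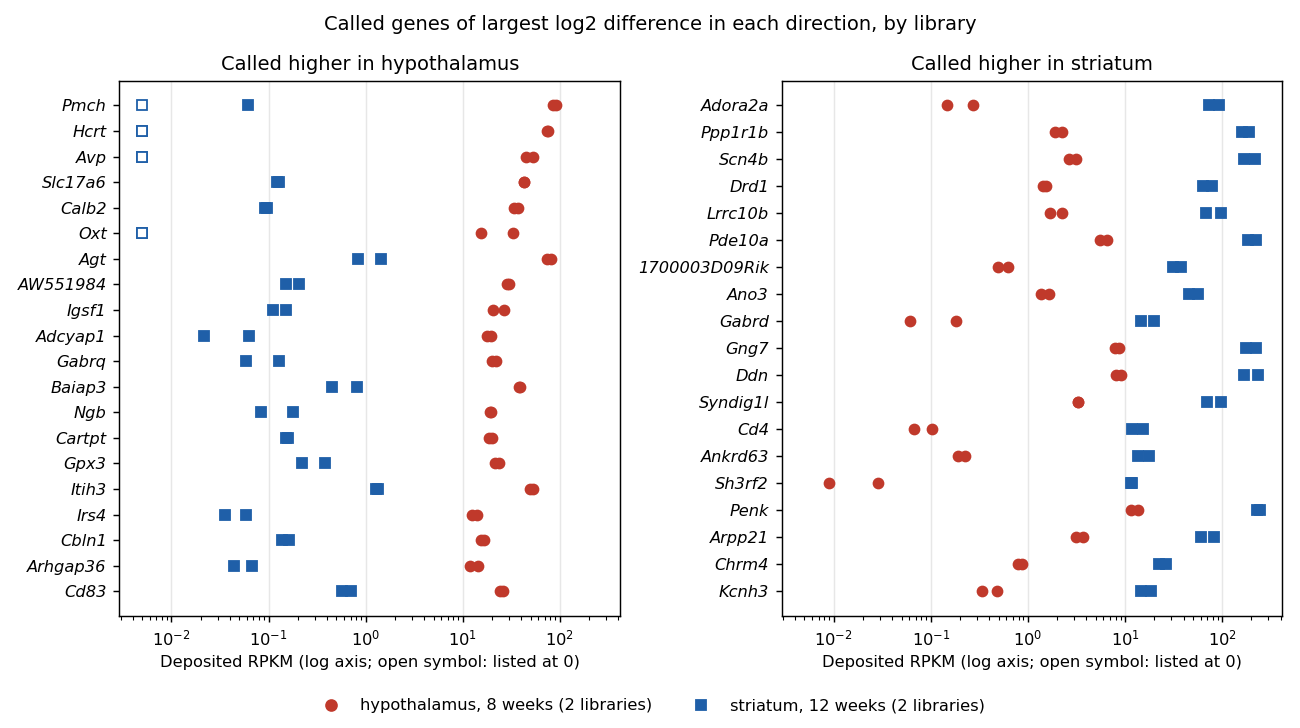
Deposited RPKM (log axis) in each library for the called genes of largest log2 difference in each direction, 20 in hypothalamus and 19 in striatum; circles are the 2 hypothalamic libraries, squares the 2 striatal libraries, and open symbols mark values listed at 0. Pmch stands at 90.2 and 85.4 RPKM in hypothalamus, and Adora2a at 72.6 and 91.8 in striatum, with no overlap between regions for any gene shown.

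Genes that store and process peptides moved less as a group. Of 25 tested, 13 were called higher in hypothalamus and 4 higher in striatum, with a median of 0.36. The 4 were Pcsk2, Vgf, Ptprn and Ptprn2, and without further scaling 0 were called higher in striatum. Scg2, a granule protein and peptide precursor, was at 253 and 299 RPKM against 36 and 56.5 (2.0). Resp18, an endocrine granule protein, was at 32.6 and 37.1 against 1.0 and 1.12 (3.98), and Baiap3, which acts in dense-core vesicle traffic, at 37.9 and 39 against 0.449 and 0.807 (4.65). The 2 prohormone convertases parted: Pcsk1 was at 12.9 and 14.4 against 2.08 and 3.75 (1.55), while Pcsk2 was at 29 and 28.9 against 27.5 and 41.1 (-0.79) and called higher in striatum, though not without further scaling. Cpe, the carboxypeptidase that trims the cleaved peptides, was at 214 and 239 against 119 and 153 and was not called (0.15, adjusted p = 0.36, limma). It was called higher in hypothalamus without further scaling (0.75, adjusted p = 0.0151, limma) and with quantile normalisation (0.32, adjusted p = 0.0117, limma).

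Receptors for peptides and hormones were called higher in hypothalamus for 32 of 47 tested and higher in striatum for 10, with a median of 0.92; 25 reached 1 RPKM in hypothalamus only. Gpr165, an orphan receptor, was at 30.01 and 34.1 RPKM against 1.09 and 1.13 (3.82). Oprl1, the nociceptin receptor, was at 50.6 and 57 against 4.48 and 6.26 (2.65), and Adcyap1r1, the PACAP receptor, at 46.4 and 54 against 10.2 and 12.6 (1.51). Both were also present in striatum, several times lower. The calcitonin receptor Calcr was at 4.66 and 6.13 against 0.0948 and 0.0402 (3.01), and the melatonin-related receptor Gpr50 at 4.44 and 6.6 against 0.0509 and 0.0370 (3.1). Receptors that read feeding and reproductive signals were called at lower levels: Mc3r (1.44), Mc4r (0.79), Npy2r (1.99), Glp1r (1.09) and Prlr (1.8). Lepr, the leptin receptor, was at 0.587 and 0.569 in hypothalamus and Ghsr, the ghrelin receptor, at 0.904 and 0.977, both too low to be tested.

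Ligand and receptor were not always high in the same region. Mchr1, the receptor for melanin-concentrating hormone, was at 8.9 and 13.3 RPKM in striatum and 3.38 and 3.79 in hypothalamus, a log2 difference of -2.02 with no overlap, whereas its ligand gene Pmch was nearly limited to hypothalamus. The orexin receptor genes did not share that pattern, with Hcrtr2 at 3.24 and 3.54 in hypothalamus against 0.221 and 0.280 (1.99) and Hcrtr1 at 1.0 and 1.01 against 0 and 0.105 (1.22). Oprd1, the delta opioid receptor that enkephalin binds, was at 6.38 and 8.27 in striatum against 1.8 and 1.86 (-2.23), and Oprm1, the mu receptor, was called higher in hypothalamus at 4.82 and 4.91 against 1.44 and 2.45 (0.66). The call for Oprm1 was lost without the first striatal library (adjusted p = 0.106, limma) or the first hypothalamic library (0.0503). Vipr1, a receptor for VIP and PACAP, was at 2.06 and 3.49 in striatum, 3.08 and 4.27 in cortex and only 0.169 and 0.0787 in hypothalamus (-2.62). Oxtr and Avpr1a, receptors for oxytocin and vasopressin, were at 2.53 and 3.04 and at 1.67 and 1.73 in hypothalamus and were called there (1.64 and 1.84).

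The striatal side was led by the signalling proteins of spiny projection neurons. Of 56 such genes tested, 53 were called higher in striatum, 51 of them by at least 1 log2 unit, and 2 higher in hypothalamus, with a median of -3.27. Adora2a, the adenosine receptor of indirect-pathway neurons, was at 72.6 and 91.8 RPKM in striatum and 0.274 and 0.148 in hypothalamus. Its log2 difference of -7.19 (SE 0.16, adjusted p = 1.4e-13, limma) was the largest of all genes tested. Ppp1r1b, the dopamine-regulated phosphatase inhibitor DARPP-32, was at 159.7 and 191 against 2.27 and 1.92 (-6.6). Scn4b, a sodium channel beta subunit, was at 167 and 219 against 3.15 and 2.63 (-6.36).

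Both output pathways were represented. Drd1, the dopamine receptor of direct-pathway neurons, was at 63.8 and 77.7 RPKM in striatum against 1.42 and 1.55 in hypothalamus (-5.65), and Drd2, that of indirect-pathway neurons, at 41.5 and 51 against 4.21 and 3.72 (-3.93). Chrm4, the muscarinic receptor of direct-pathway neurons, was at 22.3 and 26.4 against 0.799 and 0.868 (-4.66). For each the striatal libraries were several times above the hypothalamic ones. In wild-type cortex at 3 weeks Drd1 was at 7.74 and 9.66 and Adora2a at 7.85 and 9.8, between the levels of the 2 adult regions, and in striatum at 3 weeks they were at 86.4 and 111 and 97.2 and 113. The exceptions among the list were Oprm1 (above) and Isl1, a factor of direct-pathway and hypothalamic neurons, which was at 5.63 and 6.24 in hypothalamus against 2.3 and 2.78 (0.56).

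Downstream of these receptors, the cyclic nucleotide and G protein genes divided by isoform. Of 70 tested, 23 (32.9%) were called higher in hypothalamus and 31 (44.3%) higher in striatum, with a median of -0.20 that became 0.36 without further scaling. Among G protein subunits, Gnal, the olfactory-type stimulatory alpha subunit used in striatum, was at 58.3 and 69.1 RPKM in striatum against 13.1 and 13.8 (-2.78). Gnas, the general stimulatory alpha subunit, was at 43.1 and 49.4 in hypothalamus against 5.76 and 7.26 (2.17). The gamma subunits split too, with Gng7 at 175 and 222 in striatum against 7.81 and 8.6 (-5.08) and Gng2 at 28.8 and 30.8 in hypothalamus against 2.96 and 4.32 (2.33). Adenylyl cyclases showed the same division. Adcy5 was at 87.5 and 107 in striatum against 14.2 and 16.1 (-3.22), while Adcy8 was at 5.07 and 5.48 in hypothalamus against 0.568 and 0.431 (2.08). The phosphodiesterases Pde10a, at 184 and 225 against 5.54 and 6.48 (-5.54), and Pde1b, at 108 and 141 against 11.8 and 12.4 (-3.88), which break down cyclic nucleotides, and the G protein regulator Rgs9, at 30.1 and 29.9 against 3.3 and 3.25 (-3.55), were high in striatum.

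Calcium-binding and postsynaptic density genes were called higher in striatum for 27 of 41 tested and higher in hypothalamus for 8, with a median of -1.23. Hpca, the neuronal calcium sensor hippocalcin, was at 215 and 305 RPKM in striatum against 34.5 and 31.2 (-3.53). Nrgn, a calmodulin-binding protein of dendrites, was at 55.7 and 70.3 against 5.08 and 5.14 (-4.05), and Camk4, a calcium-dependent kinase, at 41.5 and 44.8 against 3.74 and 3.75 (-3.91). Other calcium sensors went the opposite way: Calb2, calretinin, was at 33.3 and 36.9 in hypothalamus against 0.0960 and 0.0930 (5.51), and Vsnl1 at 112 and 121 against 10.3 and 15.2 (2.59). The kinase family was divided, with Camk2a at 46.6 and 44 in striatum against 12.3 and 12.7 (-2.39) and Camk2d at 7.38 and 6.98 in hypothalamus against 1.06 and 1.08 (1.79).

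Activity-regulated genes were mostly higher in striatum. Of 26 immediate-early genes tested, 17 were called higher in striatum, each by at least 1 log2 unit, and 3 (Jun, Btg2 and Bdnf) higher in hypothalamus, with a median of -1.54. Egr3, a zinc finger factor, was at 10.8 and 13.7 RPKM in striatum against 0.276 and 0.209 (-4.43), and Egr1 at 11.6 and 12 against 1.34 and 0.921 (-3.39). Arc, a synaptic protein, was at 32.3 and 55.3 against 4.19 and 4.52 (-3.69), and Homer1 at 26.2 and 31.3 against 3.56 and 4.02 (-3.31). Fos itself was at 2.13 and 3.99 in striatum and 4.39 and 4.32 in hypothalamus, with overlapping scaled values, and was not called (-0.02, adjusted p = 0.964, limma).

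Of 72 factors of hypothalamic development in the table, 35 were tested, of which 22 were called higher in hypothalamus and 10 higher in striatum, with a median of 0.63. Of those tested, 17 reached 1 RPKM in hypothalamus only, and with a filter of 5 RPKM the median, relative to all genes, changed sign to -0.0737. Fezf1, a factor of the ventromedial nucleus, was at 3.37 and 3.42 RPKM and Foxb1, a factor of the mammillary region, at 4.1 and 3.33, and both are listed at 0 in adult striatum. Sim1, a factor of the paraventricular nucleus, was at 2.34 and 3.04 against 0.0311 and 0.0121 (2.3), and Nr5a1, which marks the ventromedial nucleus, at 2.43 and 2.56 against 0.0155 and 0 (2.27). The levels were low in RPKM but the 2 hypothalamic libraries were close and striatum was near 0. The 10 members called higher in striatum were led by Pou3f1, at 5.34 and 7.87 against 0.612 and 0.556 (-3.09), and included the forebrain factors Lhx6 (-1.33), Dlx6 (-1.53) and Meis1 (-1.43).

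Among 27 tested factors of striatum and pallium, 21 were called higher in striatum, 19 by at least 1 log2 unit, and 4 higher in hypothalamus, with a median of -1.67. Bcl11b, a factor of spiny projection neuron differentiation, was at 18.9 and 25.3 RPKM in striatum against 1.05 and 1.1 (-4.3). Meis2 was at 19.6 and 23.6 against 1.26 and 1.44 (-4.06), Foxp1 at 20.1 and 23.1 against 1.75 and 1.65 (-3.83), and Rarb, a retinoic acid receptor, at 16.9 and 22.9 against 1.36 and 1.77 (-3.79). Cux2 (0.91), Nkx2-1 (0.87), Foxp4 (0.35) and Isl1 were the members called higher in hypothalamus.

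**Figure D3:**
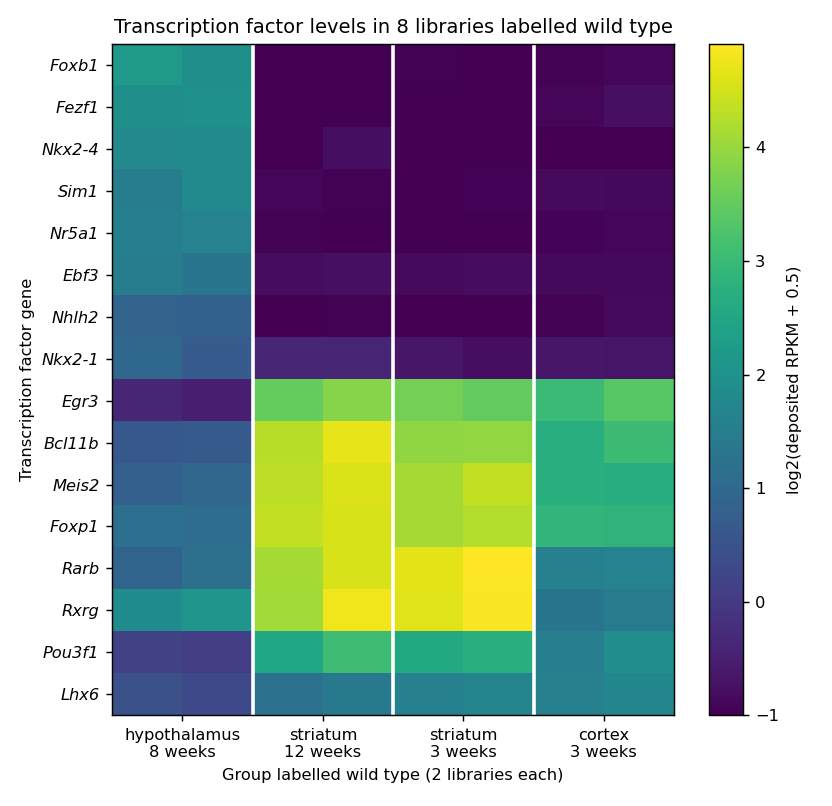
Level of 16 transcription factor genes (rows) in the 8 libraries labelled wild type (columns, 2 per group), as log2(deposited RPKM + 0.5) on the colour scale. The upper 8 genes are highest in hypothalamus and the lower 8 in the striatal or cortical libraries. The genes were picked and ordered by direction, so this split follows from the choice. Bcl11b is at 1.05 and 1.1 RPKM in hypothalamus against 18.9 and 25.3 in adult striatum.

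Glutamate, GABA and acetylcholine genes differed in how far the regions shared them. Slc17a6, which loads glutamate into vesicles and is known as VGLUT2, was at 42.5 and 42.4 RPKM in hypothalamus against 0.122 and 0.128 in striatum (5.7, SE 0.12, adjusted p = 1.4e-13, limma). The GABA genes were present in both regions. Gad1, a GABA-synthesising enzyme, was at 61.1 and 73.8 in striatum against 40.6 and 47.2 (-1.2) and Slc32a1, the vesicular GABA transporter, at 15.8 and 17.4 against 9.67 and 10.5 (-1.26), both called higher in striatum. Gad2, the other GABA-synthesising enzyme, was at 40.7 and 50.1 in hypothalamus and 29.9 and 38.1 in striatum and was not called (-0.17, adjusted p = 0.283, limma). Slc6a11, the GABA transporter GAT3 found mainly in astrocytes, was at 105 and 110.2 in hypothalamus against 7.26 and 6.31 (3.32). The cholinergic genes Chat, at 3.23 and 4.25 against 0.303 and 0.275 (-2.75), and Slc5a7, the choline transporter, at 4.62 and 5.31 against 0.409 and 0.360 (-2.99), were higher in striatum, which holds cholinergic interneurons.

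Of 14 tested genes for monoamine synthesis and transport, 10 were called higher in hypothalamus and 1 higher in striatum, with a median of 1.10. Hdc, which makes histamine in the tuberomammillary nucleus, was at 9.35 and 11.5 RPKM against 0.181 and 0.139 (3.64). Ddc, the amine decarboxylase, was at 9.49 and 8.53 against 0.164 and 0.329 (3.27), and Th, tyrosine hydroxylase, at 10.3 and 8.7 against 1.06 and 1.28 (2.08). Slc6a3, the dopamine transporter, was at 11.9 and 1.01 in the 2 hypothalamic libraries and 0.0530 and 0.0385 in striatum (2.69). The first hypothalamic library was thus more than 10 times above the second for this gene. It was also the higher of the 2 for the nicotinic subunit Chrna6, at 3.04 and 1.18, and the vesicular transporter Slc18a2, at 11.3 and 7.96. Th and Ddc were likewise higher in the first library, whereas Hdc was higher in the second. The share of midbrain RNA in the hypothalamic libraries was not tested. The difference of Slc6a3 was 1.19 without the first hypothalamic library and 4.19 without the second. Each of these fits leaves 1 wild-type hypothalamic library, so the spread then comes from the other groups only. With only the 4 compared libraries in the fit, the adjusted p of Slc6a3 was 0.0224, against 0.00133 in the main fit (limma).

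Receptors for fast transmitters differed by subunit. Of 33 glutamate receptor genes tested, 23 were called higher in striatum and 6 higher in hypothalamus, with a median of -0.76; without further scaling the counts were 14 and 9. The NMDA receptor subunits Grin2a, at 18.9 and 19.9 RPKM in striatum against 5.33 and 5.54 (-2.3), and Grin2b, at 21.8 and 22.7 against 7.33 and 7.59 (-2.08), were striatal, whereas Grin3a was at 13 and 15.5 in hypothalamus against 1.65 and 2.08 (2.11). The metabotropic receptor Grm5 was at 49.3 and 55.5 in striatum against 18.9 and 21.4 (-1.94), and Grm2 at 4.95 and 4.66 in hypothalamus against 0.172 and 0.180 (2.59). Of 22 GABA and glycine receptor genes, 12 were called higher in hypothalamus (54.5%, against 26.5% of all genes tested). Another 6 were called higher in striatum (27.3%, near the 27.1% of all genes tested). Gabrq, the theta subunit of the GABA-A receptor, was at 19.8 and 22.1 in hypothalamus against 0.128 and 0.0580 (4.79), while the delta subunit Gabrd, found in extrasynaptic receptors, was at 14.7 and 19.97 in striatum against 0.0613 and 0.183 (-5.13). The glycine receptor subunit Glra3 was at 7.77 and 7.2 in hypothalamus against 0.202 and 0.135 (3.18), and Glra1, at 2.76 and 3.52 there, is listed at 0 in striatum.

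Ion channels followed the same mixed pattern. Voltage-gated potassium channel genes were called higher in striatum for 24 of 38 and higher in hypothalamus for 13, with a median of -0.68 (17 and 13 without further scaling). Kcnab1, an auxiliary beta subunit, was at 62.9 and 77.9 RPKM in striatum against 5.37 and 6.21 (-4.05), and Kcna4, which carries a transient current, at 29.5 and 32.6 against 5.81 and 5.67 (-2.89). Kcnc4, a channel of the Kv3 family, was at 11.8 and 12.9 in hypothalamus against 0.813 and 1.3 (2.56). The inward rectifiers split as well, with Kcnj4 at 40.7 and 56.4 in striatum against 2.81 and 2.61 (-4.45) and Kcnj5 at 3.42 and 3.37 in hypothalamus against 0.138 and 0.104 (2.29). Of 39 sodium and calcium channel genes, 25 were called higher in striatum and 10 in hypothalamus, among them the calcium release channels Itpr1, at 63.4 and 73.8 in striatum against 8.41 and 9.23 (-3.46), and Ryr3, at 9.94 and 9.7 against 2.27 and 2.07 (-2.46). Trpc5, a cation channel, was at 6.9 and 7.67 in hypothalamus against 0.589 and 0.715 (2.29).

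Imprinted genes are those expressed, in at least some tissues, from the allele of a single parent. They were called higher in hypothalamus for 24 of 47 tested and higher in striatum for 4 (Ppp1r9a, Meg3, Kcnq1ot1 and Htr2a). Their median was 0.38. Among those of high level, Ndn, a growth regulator of the Prader-Willi region, was at 254 and 253 RPKM against 30.5 and 32.8 (2.39). Nnat, a small membrane protein, was at 176 and 206 against 15.6 and 18.2 (2.87), and Nap1l5 at 158 and 159 against 14 and 16.7 (2.74). Peg3, a zinc finger protein, was at 153 and 178 against 32.1 and 34.1 (1.71). Magel2, of the Prader-Willi region, was at 5.15 and 5.11 against 0.0786 and 0.152 (2.84), and Asb4 at 6.21 and 7.21 against 0.0628 and 0.0270 (3.37). Ppp1r9a, a synaptic actin-binding protein, went the opposite way at 64.6 and 73.7 in striatum against 24.8 and 27.1 (-1.98), as did the noncoding RNA Meg3 at 59.7 and 47.1 against 49 and 41 (-0.83). The call for Meg3 was lost without further scaling (-0.24), without the first striatal library (-0.50) and without the second hypothalamic library (-0.66). The strains of the 2 groups differ, and the alleles were not measured.

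Circadian clock genes were called higher in striatum for 14 of 24 and higher in hypothalamus for 3 (Nfil3, Csnk1e and Zfhx3), with a median of -0.63; without further scaling the counts were 6 and 5 and the median -0.08. Npas2, the forebrain partner of Bmal1, was at 3.24 and 4.65 RPKM in striatum against 0.683 and 0.528 (-2.39). The clock output factor Dbp was at 14.6 and 18 against 4.71 and 5.52 (-2.13), and the negative regulators Per1 and Per2 at 3.78 and 4.57 against 1.17 and 1.09 (-1.97) and at 5.2 and 5.5 against 1.95 and 2.27 (-1.67). The hour at which tissue was taken is not given in the labels.

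Glial genes differed between cell types and within them. Astrocyte markers were called higher in hypothalamus for 19 of 30 and higher in striatum for 5 (Slc1a2, Slc4a4, Mfge8, Id3 and Id4), with a median of 0.68. Agt, angiotensinogen, which astrocytes make, was at 73.9 and 81.8 RPKM in hypothalamus against 1.43 and 0.832 (5.08), and Sparc, a matrix protein, at 148 and 165 against 11 and 9.82 (3.27). Gfap, the intermediate filament of astrocytes, was at 45.2 and 47.6 against 4.69 and 5.82 (2.46). However, Slc1a2, the main glutamate transporter, was at 156 and 161 in striatum against 105 and 110.1 (-1.14), and Id4 at 42.4 and 48.6 against 20.9 and 22.6 (-1.63). Astrocyte genes therefore did not move as a block. Markers of tanycytes and ependymal cells were called higher in hypothalamus for 12 of 21 (57.1%) and higher in striatum for 5 (23.8%). Foxj1, a factor of ciliated cells, was at 5.08 and 8.0 against 1.37 and 1.66 (1.27). Crym, Dio2, Lhx2 and Slco1c1 were among these 5, and Crym, a thyroid hormone-binding protein that striatal neurons also make, was at 8.35 and 14.2 in striatum against 1.28 and 1.02 (-3.26).

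Myelin genes were called for 4 members (Olig1, Olig2, Nkx6-2 and Sept4) higher in hypothalamus and 2 (Apod and Anln) higher in striatum of 31 tested, with a median of 0.04; 20 were called higher in hypothalamus without further scaling. Microglial genes were called higher in striatum for 17 of 20 and higher in hypothalamus for 0, with a median of -0.74, but for 1 and 0 without further scaling. Their summed RPKM of 90.3 and 106 in hypothalamus overlapped the 97.3 and 115 in striatum. Tmem119, a microglial membrane protein, was at 5.15 and 6.94 in striatum and 3.85 and 5.52 in hypothalamus (-0.88).

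Housekeeping lists lay near the median gene under the scaling used. Of 67 oxidative phosphorylation genes, 1, Atp5h, was called higher in hypothalamus and 8 higher in striatum, with a median of -0.03, and of 72 ribosomal protein genes 6 and 7, with a median of 0.05. Without further scaling 29 and 36 of them were called higher in hypothalamus. The abundant tubulin genes Tuba1a, at 379 and 430.5 RPKM in hypothalamus against 92.6 and 139.8 (1.23), and Tubb2a, at 285 and 297 against 39.2 and 68.9 (1.88), have close copies, and how reads that match several places were counted is not given, so their values are uncertain. The same holds for Gnas, Meg3 and Kcnq1ot1, which overlap other transcripts, since the strand setting is not given either. Malat1, a nuclear noncoding RNA, was at 816 and 648 in striatum against 345 and 282 (-1.81).

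**Figure D4:**
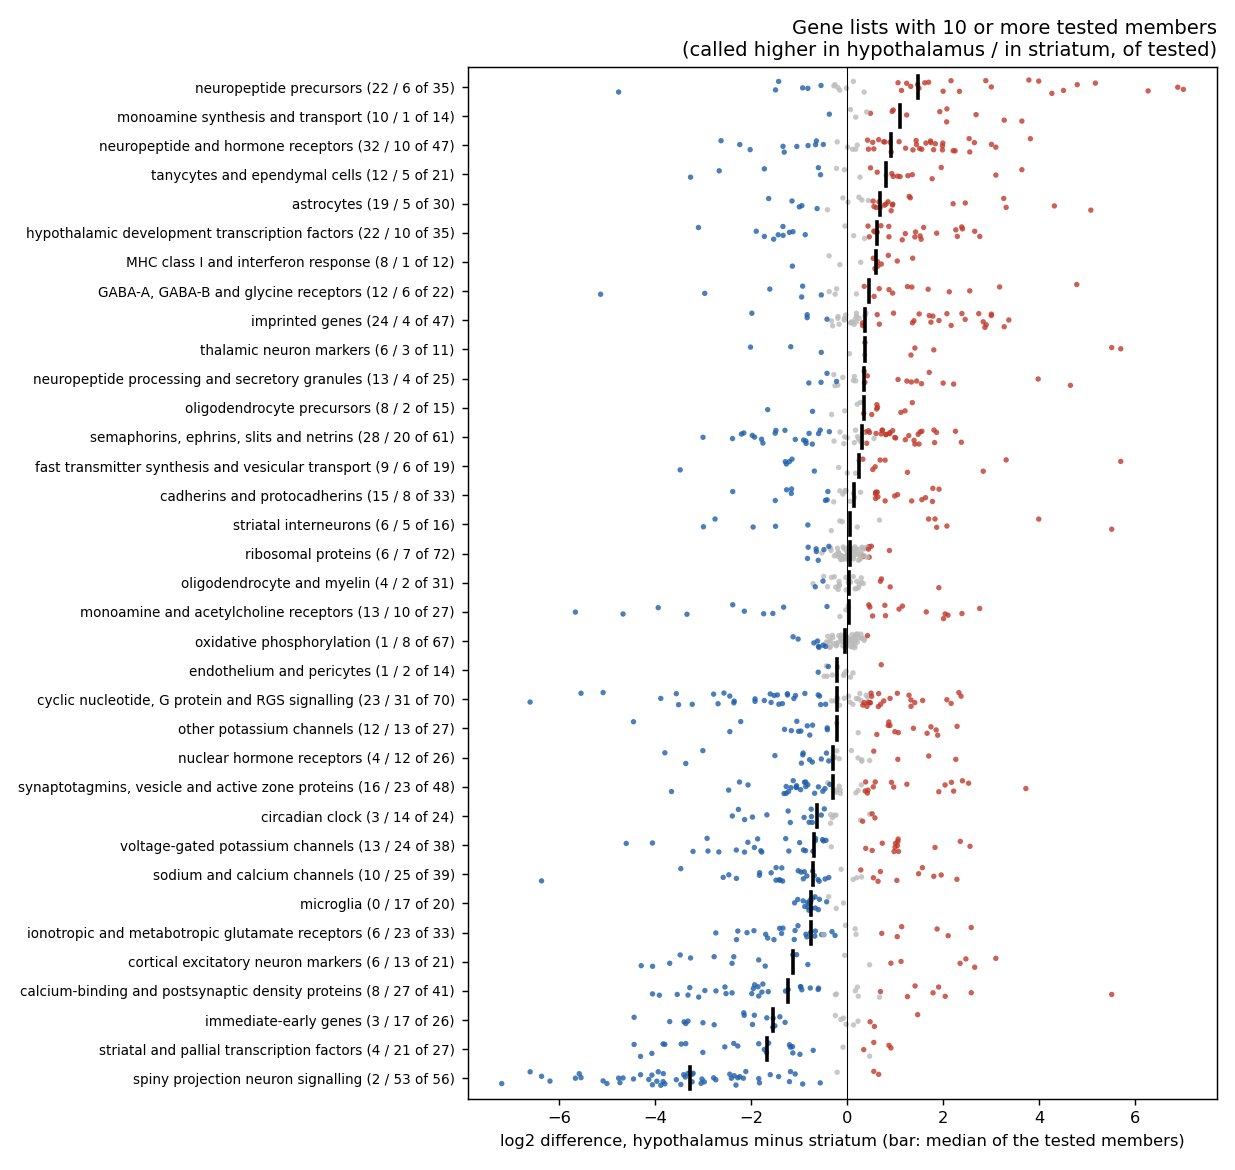
Log2 difference (hypothalamus minus striatum) of each tested member of the gene lists with 10 or more tested members; points are genes coloured by call and black bars are medians. Spiny projection neuron genes have the lowest median, -3.27, and neuropeptide precursors the highest, 1.47, while myelin and oxidative phosphorylation genes lie around 0.

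Markers of neighbouring tissue were measured beside these results. Of the 29 cortical excitatory markers, 13 of 21 tested were called higher in striatum and 6 higher in hypothalamus. Their RPKM summed to 232 and 306 in striatum and 113 and 123 in hypothalamus. Slc17a7, the vesicular glutamate transporter VGLUT1 of cortical neurons, was at 2.68 and 9.58 in the striatal libraries, 0.0940 and 0.139 in hypothalamus and 113 and 129 in cortex, so that the second striatal library was the higher of the 2. The share of cortical RNA in striatal differences such as those of Arc, Nrgn and Camk2a, which cortex also expresses, was not tested. Of the 21 thalamic markers, 10 were below the level for testing. Among them were Tcf7l2, at 0.207 and 0.226 in hypothalamus, and Gbx2, at 0.0650 and 0.0605. Of the 11 tested, 6 were called higher in hypothalamus, 5 of them by at least 1 log2 unit, and 3 higher in striatum. All 21 summed to 129 and 140.1 RPKM in hypothalamus against 27.9 and 35.2 in striatum, mainly through Slc17a6 and Calb2. The share of thalamic RNA in the hypothalamic libraries was not tested. Of the pituitary markers, the hormone genes Gh and Prl and their factor Pou1f1 are listed at 0 in all 4 libraries, Cga was at 0 and 1.24 in hypothalamus and Tshb at 0.928 and 0.499. Their 21 genes summed to 32 and 31.7 RPKM in hypothalamus, mostly Pomc and Timp4, and to 6.48 and 7.26 in striatum. Of 20 choroid plexus markers, 4 were tested, of which 2 were called higher in hypothalamus and 0 higher in striatum. These 20 markers summed to 21.5 and 21.6 RPKM in hypothalamus and 12.2 and 12.8 in striatum. Ttr, among the 16 too low to be tested, went the opposite way, at 1.24 and 0.854 in striatum and 0.0189 and 0 in hypothalamus.

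The same contrast in the libraries labelled knockout, which share no library with the wild-type ones, called 5649 genes (48.6%), 2870 (24.7%) higher in hypothalamus and 2779 (23.9%) higher in striatum. Of the 3086 wild-type calls for hypothalamus, 2516 were called in the same direction there, which is 81.5% of the wild-type and 87.7% of the knockout-labelled calls. Of the 3149 for striatum, 2449 were, which is 77.8% and 88.1%. Both contrasts came from the same fit, with a shared estimate of spread per gene, and the genes were filtered on the wild-type libraries. The overlaps are therefore not those of independent tests. A call in the opposite direction was made for 0 of the first set and 1 of the second, Htr2a. Log2 differences of the leading genes were alike: 6.7 for Pmch, 5.49 for Slc17a6, -7.06 for Adora2a and -5.54 for Drd1. Rai1, which was higher in the libraries labelled knockout of both regions, was called higher in striatum in the libraries labelled wild type (-0.87; -0.34 and not called without further scaling) and had a difference of -1.13 in those labelled knockout.

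**Figure D5:**
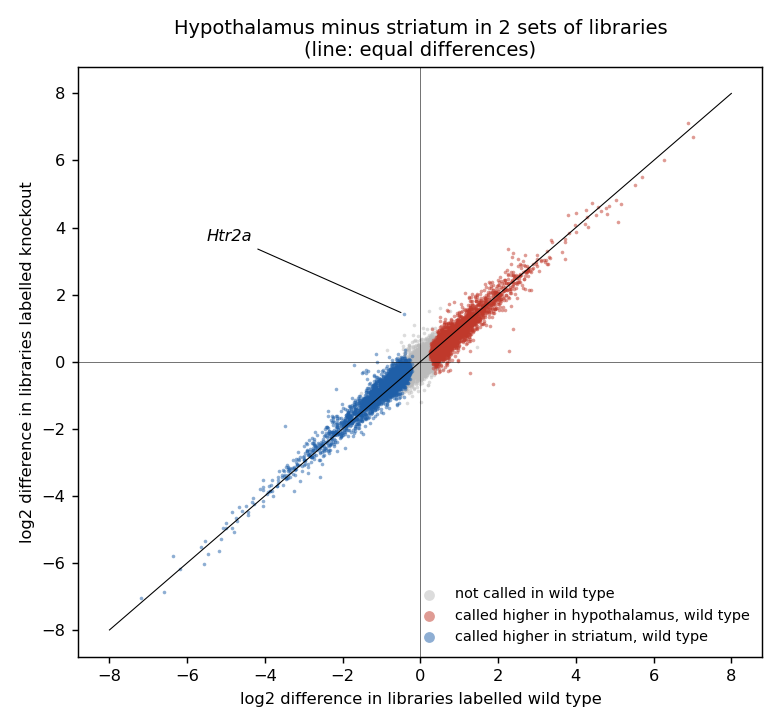
Log2 difference, hypothalamus minus striatum, in libraries labelled knockout (vertical axis) against libraries labelled wild type (horizontal axis) for 11634 genes; each point is a gene coloured by its wild-type call, and the line marks equal differences. Points lie along the line, and Htr2a, at -0.42 and 1.42, is the gene called for a difference between the 2 contrasts.

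A test of the difference between the 2 contrasts called 1 gene (0.0086%), with 483 genes at an unadjusted p below 0.05 (limma). The gene was Htr2a, the serotonin receptor 2A. Its level was 5.1 and 5.74 RPKM in wild-type hypothalamus, 4.5 and 5.38 in wild-type striatum, 5.02 and 4.64 in hypothalamus labelled knockout and 1.13 and 1.01 in striatum labelled knockout. Only the striatal libraries labelled knockout were low. The regional difference was -0.42 in wild type and 1.42 in the libraries labelled knockout, and differed by 1.84 (adjusted p = 0.00346, limma). Without further scaling this gene was not called (adjusted p = 0.0564) and its wild-type difference turned to 0.12.

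Wild-type cortex and striatum at 3 weeks show which hypothalamic genes were low in the other groups labelled wild type. Of the genes tested, 31 were at 1 RPKM or more in both hypothalamic libraries and under 0.15 RPKM in all 6 other wild-type libraries. They include the peptide genes Hcrt, Avp, Gal and Npvf, the receptors Brs3, Gpr50, Cckar and Avpr1a, the glycine receptor subunit Glra1, and the factors Sim1, Nr5a1, Fezf1, Foxb1 and Nhlh2. Brs3, a bombesin-type receptor in energy balance, was at 1.61 and 1.56 in hypothalamus against 0.0165 and 0.0160 in adult striatum. Because all 6 other libraries are B6/FVB and the hypothalamic ones B6/129, strain and region cannot be told apart for these genes either. Conversely, 4 genes, among them Slc17a7, the potassium channel subunit Kcng1 and Atp6ap1l, were at 1 RPKM or more in all 6 striatal and cortical libraries and under 0.15 in both hypothalamic ones. Kcng1 and Atp6ap1l were picked out by this pattern after their values were seen.

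Just below the level for testing were Helq, whose second highest value was 0.999951 RPKM, Mitf at 0.999668 and Bmp3 at 0.99917. Just above it were Mir99ahg at 1.00025, Dleu2 at 1.00052 and Mir667 at 1.00142.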

How the data were processed

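Per the labels' protocols, tissue was flash frozen and its RNA taken up in Trizol. The submitters' processing notes name CASAVA 1.8.2, cutadapt 1.6, TopHat2 and the mouse build mm9. No source used here states the counting tool, the strand setting, how multiply mapping reads were treated or the RPKM denominator. The values are RPKM per gene, as deposited by the authors.

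From these, 16 libraries of 8 groups were scaled by median-ratio factors over genes and taken to log2(RPKM + 0.5), and the log2 scale is thus computed from the deposited values. Genes with 1 RPKM or more in at least 2 of the 4 compared libraries were fitted with limma 3.58.1 (R 4.3.3), with group means, a trended variance and 8 residual degrees of freedom. P-values were adjusted by Benjamini-Hochberg over 11634 genes, and genes with adjusted p below 0.05 are called. In simulated data the procedure recovered 16.8% of genes changed by 0.5, 90.2% by 1 and 99.6% by 2 on the log2 scale, with 4.4%, 5.03% and 5.56% of calls false. Only 200 of the 11634 genes were changed there, whereas 53.6% were called in the data, so these rates need not hold for the contrast. Genes are named by a rule: the largest called log2 and RPKM differences in each direction, for each list up to 8 called members per direction and up to 3 uncalled ones of highest level, any peptide, receptor or neighbouring-tissue marker of the lists, the checks Rai1, Gad2 and Slc17a6, genes of the test between contrasts, and the 3 genes on each side of the 1 RPKM level. A few genes of the rule are not reported here. The compared genes, lists and this rule were chosen with earlier results of these data known. Alternatives were other scalings, pseudocounts, filters, sets of libraries, variance models and a replicate block, and each library left out in turn. Promoter windows came from RefSeq tables (GRCm38.p6), in which 8741 of the compared genes matched.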

Additional observations from a re-analysis of the deposited data

Results flagged for a closer look

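The difference between hypothalamus and striatum was not the same in both sets of libraries for Htr2a, the serotonin receptor 2A. The contrast in the libraries labelled knockout exceeded that in the libraries labelled wild type by 1.84 on the log2 scale (SE 0.20, adjusted p = 0.00346, limma). The 2 striatal libraries labelled knockout, at 1.13 and 1.01 RPKM, were below the other 6 libraries of the 2 regions, which ran from 4.5 and 5.38 in striatum labelled wild type to 5.1 and 5.74 in hypothalamus labelled wild type. Groups of 2 libraries are too small to look for single outlying libraries.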

How the results depend on the processing

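The scaling mattered most. Without further scaling of the RPKM, 6546 genes were called higher in hypothalamus and 1186 in striatum, 2332 and 543 of them by at least 1 log2 unit. In the libraries labelled knockout the counts were then 4936 and 1235, and limma called 0 genes for a difference between the contrasts, with 312 at an unadjusted p below 0.05. With upper-quartile scaling 3713 and 2701 genes were called, and with quantile normalisation 3501 and 3024. Requiring 5 RPKM in at least 2 libraries left fewer genes, of which 1731 and 1629 were called, 519 and 674 by at least 1 log2 unit. Leaving out each library in turn gave 2441 to 2674 genes higher in hypothalamus and 2460 to 2858 in striatum, 918 to 968 and 1001 to 1152 by at least 1 log2 unit. For libraries labelled knockout it gave 2169 to 2380 and 2126 to 2275. The contrasts differed for 1 to 3 genes: Mir6989 joined Htr2a without either striatal library labelled knockout, and Rasgrf1 and Slc6a3 joined without the first hypothalamic library labelled wild type, an alternative chosen after seeing the data.

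With only the 4 compared libraries in the fit and no block, 3400 and 3461 genes were called. With the replicate number as a block over all 16 libraries, 3074 and 3138 genes were called, and over the 4 compared libraries 3650 and 3702. Deviations of same-numbered libraries correlated at 0.14 in those labelled wild type and -0.0713 in those labelled knockout, with 2 pairs, so the numbers were not taken to pair the libraries.

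Of 185 genes named in the text, 5 changed sign without further scaling: Apod (0.0267), Htr2a (0.12), Ptprn (0.17), Ptprn2 (0.37) and Vgf (0.0302). Anln, Cck, Id3, Kcnq1ot1, Meg3, Mfge8, Pcsk2, Pdyn, Rai1, Slco1c1 and Tmem119 then lost their call, as did the difference between contrasts of Htr2a (1.64, adjusted p = 0.0564, limma). Without 1 of the 4 libraries, 15 genes lost their call: Apod, Atp5h, Btg2, Cck, Csnk1e, Foxp4, Htr2a, Kcnq1ot1, Meg3, Nfil3, Oprm1, Ptprn, Ptprn2, Vgf and Zfhx3. Relative to the median of all genes, which takes out the shift of 0.51, the medians of 40 lists changed sign in 15 of 520 alternatives. Of these, 12 were in lists with a median within 0.1 of 0, and the other 3 came with the 5 RPKM filter: hypothalamic transcription factors (-0.0737), choroid plexus (-0.19) and cadherins (-0.119). For genes near 1 RPKM the depth limits what can be called. Region, strain and age were not separated.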

Other observations

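Genes of the X chromosome made up 77 of the 915 placed genes at least 1 log2 unit higher in hypothalamus (8.42%), against 21 of 1048 at least 1 log2 unit higher in striatum (2.0%) and 320 of 9645 among the remaining genes (3.32%). Positions are those of GRCm38.p6, used for names and chromosomes only, and 11608 of the 11634 genes were placed. The hypothalamic ones included Igsf1, a membrane glycoprotein of thyroid axis control, at 20.7 and 26.6 RPKM against 0.152 and 0.111 in striatum (4.84), Irs4, an insulin receptor substrate, at 12.3 and 14 against 0.0587 and 0.0355 (4.28), and Arhgap36 at 11.9 and 14.3 against 0.0678 and 0.0438 (4.24). Gabrq, Gpr165, Gpr101 and Gpr50 are also X-linked. The shares are descriptions, and the genes were picked out after their values were seen. Xist was at 0.0537 and 0.0235 RPKM in striatum and 0.0129 and 0.0120 in hypothalamus. The 4 Y-linked genes tested reached 1 RPKM in all 4 libraries, and 1 was called higher in hypothalamus. Any part of animal sex in the X-linked shares was not tested.

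Genes at least 1 log2 unit higher in striatum had a median genomic span of 47230 bases, against 23937 in those higher in hypothalamus and 23898 in the remaining genes. Striatal genes also included several nuclear receptors. Rxrg, a retinoid X receptor, was at 16.7 and 26.9 RPKM in striatum and 3.17 and 3.73 in hypothalamus (-3.0), and Nr4a1, an activity-regulated orphan receptor, at 9.2 and 14.9 and 1.27 and 1.03 (-3.36). Nr2f2, an orphan receptor also known as COUP-TFII, was at 2.02 and 2.12 in hypothalamus and 0.113 and 0.146 in striatum (1.7). Of 26 nuclear receptor genes tested, 12 were called higher in striatum and 4 (Rxra, Nr2f1, Nr2f2 and Nr5a1) higher in hypothalamus, and 6 and 9 without further scaling.

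Counts of called members in the remaining lists with 10 or more tested members, hypothalamus first, follow. They are read against 26.5% and 27.1% of all genes tested and a median of 0.00. They were 15 and 8 of 33 cadherins and protocadherins (median 0.15), 28 and 20 of 61 guidance genes (median 0.32), 6 and 5 of 16 striatal interneuron genes (median 0.06) and 9 and 6 of 19 fast transmitter genes (median 0.25). They were 13 and 10 of 27 monoamine and acetylcholine receptors (median 0.03), 12 and 13 of 27 other potassium channels (median -0.21) and 16 and 23 of 48 vesicle and active zone genes (median -0.29). They were 8 and 2 of 15 oligodendrocyte precursor genes (median 0.35), 1 and 2 of 14 endothelial and pericyte genes (median -0.20) and 8 and 1 of 12 MHC class I and interferon response genes (median 0.61). Several of these shares lie near the background, and none was tested.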
